A study of Homo sapiens with 30 samples.

Results

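The genes of glutathione synthesis, glutathione and thioredoxin reduction and the classical NRF2-dependent antioxidant response were followed in cell lines of acute myeloid leukemia (AML) after overexpression of miR-1 or deletion of MPC1. The members were 10 genes chosen by symbol (GCLC, GCLM, GSS, GSR, TXN, TXNRD1, PRDX1, SRXN1, NQO1 and HMOX1), out of 60675 genes listed in the table of the overexpression series and 58051 in that of the knockout series. All 10 were listed in both tables, and 9 passed the filter on low counts in each. HMOX1 did not pass in the overexpression series and SRXN1 did not pass in the knockout series.

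RNA sequencing covered 30 libraries in 10 groups of 3. For overexpression (OE), sequence of the miR-1-2 host gene was placed in a lentiviral vector with an EF1α promoter and GFP and introduced into MV4-11 and Molm-14, next to the same backbone left empty (EV). For knockout (KO), a lentiviral CRISPR/Cas9 vector with 1 guide against MPC1, or that vector left empty (EV), was introduced into MV4-11, Molm-14 and THP-1. Every group thus carried a vector and none was untreated. MPC1 is a subunit of the carrier that takes pyruvate into mitochondria. MV4-11 and Molm-14 carry an internal tandem duplication of the receptor kinase FLT3, and THP-1 is a monocytic line without it. All cells grew in medium with β-mercaptoethanol, a thiol, and pyruvate. The sources used here do not say whether the 3 libraries of a group were separate cultures or infections, or whether KO lines were clones, so p-values measure the spread between these libraries, which may be technical. In bulk RNA, fewer cells with a transcript and less transcript in each cell cannot be told apart.

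Glutathione is made from cysteine, glutamate and glycine in 2 steps. Glutamate-cysteine ligase, a catalytic subunit (GCLC) with a modifier subunit (GCLM), performs the rate-limiting step, and glutathione synthetase (GSS) adds glycine. Glutathione reductase (GSR) and thioredoxin reductase (TXNRD1) use NADPH to keep glutathione and thioredoxin (TXN) reduced. Peroxiredoxin PRDX1 removes hydrogen peroxide with electrons from thioredoxin, and sulfiredoxin (SRXN1) repairs overoxidized peroxiredoxins. NQO1 reduces quinones and HMOX1 degrades heme. The transcription factor NRF2 is known to induce many of these genes through antioxidant response elements.

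The mature miR-1 sequence is shown because a microRNA is known to recognize its targets mainly by seed matches in the 3′ UTR. Its seed, bases 2 to 8, is in capitals (RefSeq):
hsa-miR-1-3p: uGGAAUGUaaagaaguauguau
An 8mer site, the reverse complement of the seed followed by A, reads ACATTCCA. SRXN1 was the only one of the 10 members with a 7mer or 8mer match in the 3′ UTR of its canonical GENCODE 44 transcript, and its 1 match was an 8mer. The bases ACATTCC of that match are in capitals:
SRXN1 site: caggtaggACATTCCagagggg
Of 19229 human 3′ UTRs searched the same way, 11.7% held a 7mer or 8mer and 4.83% an 8mer. A match is a description of the sequence and does not show a functional site.

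The core of the antioxidant response element, TGACNNNGC, was searched on both strands of the promoters, because NRF2 is known to act through such elements. RefSeq promoters (GRCh38.p14, 250 bases before to 50 after a start site) were at hand for 6 members (GCLC, GCLM, TXN, TXNRD1, SRXN1 and NQO1). The core occurred in those of GCLM and TXNRD1, and in 13.3% of all 35116 promoters in the table. Each match is shown in capitals on the gene's own strand, with 10 bases on either side:
GCLM, chr1:93909446-93909474, minus strand: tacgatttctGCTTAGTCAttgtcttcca
TXNRD1, chr12:104286920-104286948, plus strand: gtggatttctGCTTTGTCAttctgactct
TXNRD1, chr12:104215670-104215698, plus strand: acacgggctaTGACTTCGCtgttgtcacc
TXNRD1, chr12:104215761-104215789, plus strand: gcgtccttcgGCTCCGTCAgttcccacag
The GCLM match lay at bases −34 to −26 from the start site. Those of TXNRD1 lay at −102 to −94 of one start site and at −99 to −91 and −8 to 1 of another. The absence of these letters from the other windows says nothing about the factor.

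The libraries of the overexpression series held 15543301 to 20939985 counts each and those of the knockout series 5339360 to 9106478. MPC1 checked the KO labels. Its level in CPM, counts scaled to a common library total, ran from 23.5 to 26.0 CPM in MV4-11 KO and from 53.7 to 58.3 CPM in MV4-11 EV, and it fell in all 3 lines (log2 fold change −1.18 in MV4-11, −1.04 in Molm-14 and −0.84 in THP-1, the highest FDR being 6.32e-06). Mature miR-1 was not analysed here. Of 10 myeloid markers, all but CD14 reached 1 CPM in at least 1 library of the overexpression series (summed level 1290 to 2470 CPM), and all 10 did in the knockout series (1850 to 9230 CPM). The T cell and erythroid markers stayed under 1 CPM in every library (4 of 4 each). Markers of B cells (summed level up to 120 CPM, with PAX5 as the gene over 1 CPM in the overexpression series), fibroblasts (up to 2.01 CPM) and epithelial cells (up to 35.8 CPM, with EPCAM and CDH1 under 1 CPM in all libraries) were present in part, and their part in the results was not tested. In MV4-11 cells of the overexpression series, OE replicate 1 and EV replicate 3 stood apart, with 318 and 51.1 CPM summed over 8 interferon-stimulated genes, against 9.4 to 10.9 CPM in the other 4 libraries. Some results in these cells are also given without that pair.

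Per kilobase of exon, the thioredoxin side was the most abundant in every line. In Molm-14 EV cells of the knockout series, PRDX1 stood at 382 ± 36.1 CPM per kb (mean ± SD, n = 3), TXN at 197 ± 11.4 and TXNRD1 at 75.1 ± 3.03, followed by GSR at 47.3 ± 3.86. The glutathione-synthesis genes came lower, with GSS at 13.2 ± 1.5, GCLM at 9.11 ± 1.01 and GCLC at 6.4 ± 0.12 CPM per kb. TXN and PRDX1 held the first 2 places, TXNRD1 the third place and GSR the fourth in all 5 EV groups. The length used was that of all annotated exons of a gene together, such as 6166 bases for GSS and 3602 for GSR. It may exceed that of the transcripts expressed, so the places of the genes depend on it. PRDX1 was above TXN in Molm-14 in both series. In THP-1 EV, TXN and PRDX1 stood at 220 ± 28.5 and 222 ± 21.5 CPM per kb and did not differ beyond their spread, nor did they in MV4-11 EV of the knockout series (144 ± 10.9 and 142 ± 15.5). HMOX1 and SRXN1 were the lowest in every EV group, with means of at most 1.36 CPM per kb. The place of SRXN1 is uncertain, because 2292 of its 2528 exon bases are shared with another gene on the same strand. How the counting treated shared bases is not known.

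miR-1 overexpression was compared with EV to ask whether these transcripts moved with it. No member passed a false discovery rate (FDR) of 5% by edgeR's quasi-likelihood test in either line. An FDR under 5% is what is meant by called below. The background was 31 of 17542 genes (0.177%) in MV4-11 and 1 gene (0.0057%) in Molm-14. At an unadjusted p under 0.05, 0 of 9 members passed in MV4-11 and 1 of 9 in Molm-14, beside 5.9% and 4.38% of all genes, and DESeq2 called 0 members in both lines and in the difference between them. The median log2 fold change of the members was 0.03 in MV4-11 (all genes 0.01) and −0.05 in Molm-14 (all genes 0.00).

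**Figure D1:**
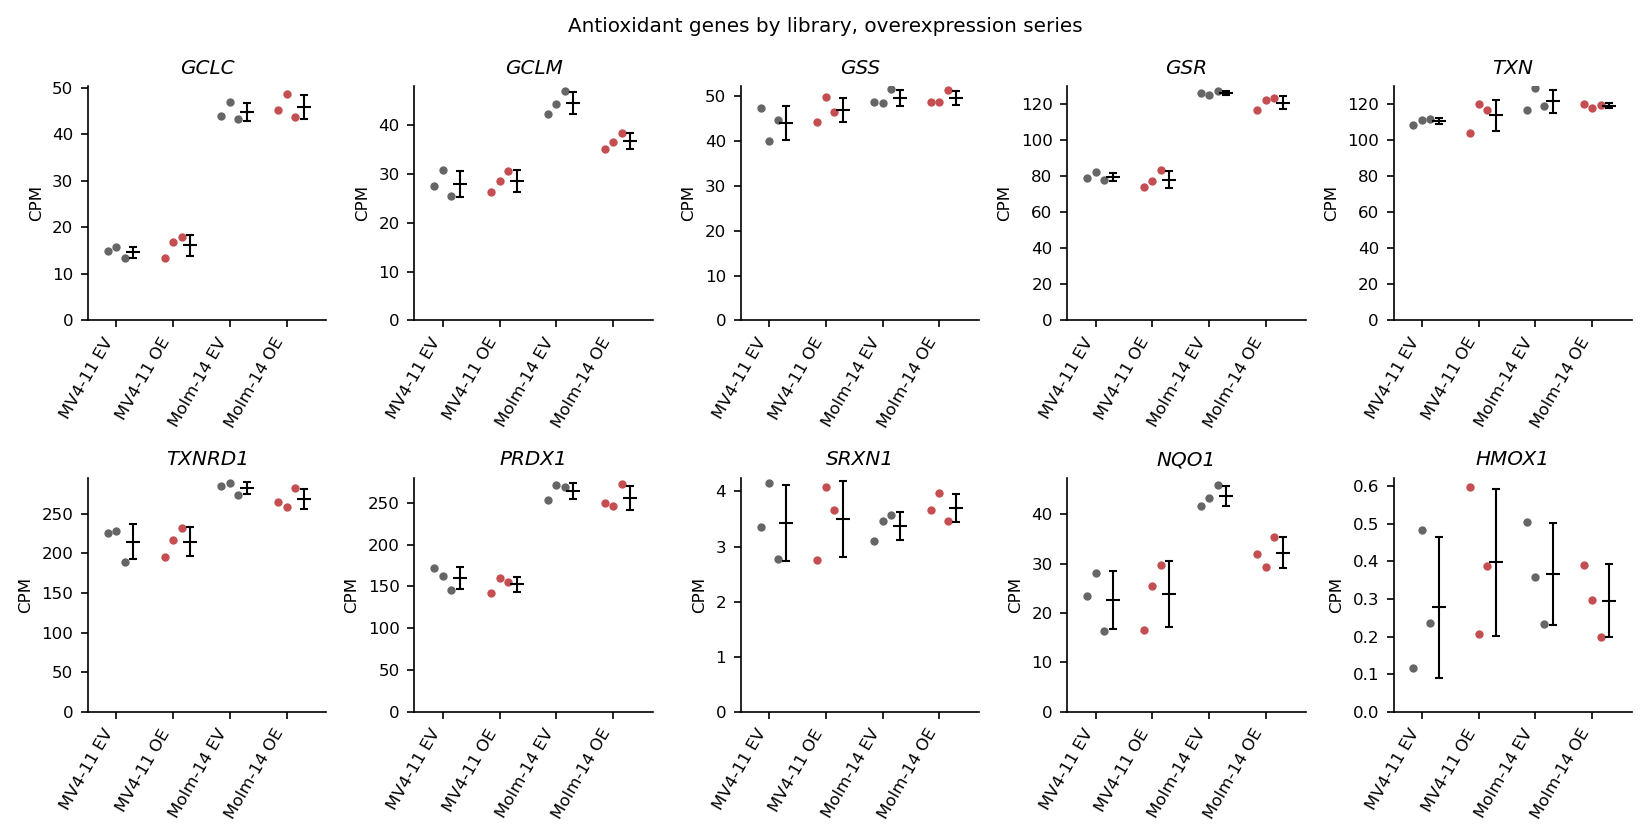
Level of each member (CPM, y axis from 0) in each library of the overexpression series (gray EV, red OE), with the mean and SD of 3 libraries beside the points. GCLC separates the lines, NQO1 and GCLM are lower in Molm-14 OE than in Molm-14 EV, and OE and EV overlap in MV4-11.

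Of the first enzyme of glutathione synthesis, the catalytic subunit GCLC (ENSG00000001084, chromosome 6, 53497341 to 53616970, minus strand) stood at 13.5, 16.9 and 17.9 CPM in MV4-11 OE and at 14.9, 15.7 and 13.3 CPM in MV4-11 EV. The groups overlapped, with a log2 fold change of 0.14 ± 0.10 (SE) and a 95% interval from −0.07 to 0.35. The modifier subunit GCLM (ENSG00000023909, chromosome 1, 93885199 to 93909456, minus strand) was at 26.3, 28.6 and 30.7 CPM in MV4-11 OE and 27.5, 30.8 and 25.5 CPM in EV, again overlapping (0.03, −0.14 to 0.20). In Molm-14, GCLM was at 35.1, 36.6 and 38.5 CPM in OE and at 42.4, 44.4 and 46.9 CPM in EV. All 3 OE libraries lay under all 3 EV libraries there (log2 fold change −0.28 ± 0.08, 95% interval −0.45 to −0.11), but the difference did not pass the adjustment (FDR = 1). GCLC did not follow it in Molm-14 (45.1, 48.6 and 43.6 CPM in OE, 43.9, 46.9 and 43.3 CPM in EV, log2 fold change 0.03).

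NQO1 (ENSG00000181019, chromosome 16, 69706996 to 69726668, minus strand) showed the same order in Molm-14. Its levels were 31.9, 29.4 and 35.5 CPM in OE and 41.7, 43.3 and 45.9 CPM in EV, with no overlap, a log2 fold change of −0.44 ± 0.22 (95% interval −0.93 to 0.05) and FDR = 1. In MV4-11, NQO1 was at 16.6, 25.4 and 29.6 CPM in OE and at 23.4, 28 and 16.3 CPM in EV, and the groups overlapped. Its lowest values there, 16.6 and 16.3 CPM, belonged to the pair of libraries with the high interferon-stimulated genes. In a fit of the 6 Molm-14 libraries by themselves, with their own estimate of the spread, both NQO1 (FDR = 1.18e-05) and GCLM (FDR = 0.00615) passed, and that fit called 195 genes of 15714, 154 higher and 41 lower in OE. The call of these genes thus depended on which libraries were fitted, which also set the genes tested and the size factors. The difference of the OE effect between MV4-11 and Molm-14 did not pass for either gene (GCLM 0.31, 95% interval 0.07 to 0.55, FDR = 0.792; NQO1 0.52, −0.20 to 1.23, FDR = 0.988), on a background of 8 genes called (0.0456%). Without the pair of libraries, the NQO1 difference was 0.53 with FDR = 0.104.

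The other members varied little with OE. The log2 fold change of GSS (ENSG00000100983, chromosome 20, 34928432 to 34956027, minus strand) was 0.09 for MV4-11 and 0.00 for Molm-14. For GSR (ENSG00000104687, chromosome 8, 30678066 to 30727846, minus strand), the 3 Molm-14 OE libraries (117, 122 and 123 CPM) lay under the 3 EV libraries (126, 125 and 127 CPM), but by a log2 fold change of only −0.06 (95% interval −0.17 to 0.04). In MV4-11, GSR was at −0.03. So 3 of the 9 members did not overlap in Molm-14, where 14.9% of all tested genes did not, and 0 of 9 in MV4-11, where the share was 9.17%.

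On the thioredoxin side, the intervals were narrow. TXN (ENSG00000136810, chromosome 9, 110243810 to 110256507, minus strand) was at 0.04 on the log2 scale in MV4-11 (95% interval −0.08 to 0.16) and −0.03 in Molm-14 (−0.15 to 0.09). TXNRD1 (ENSG00000198431, chromosome 12, 104215779 to 104350307, plus strand) was at 0.00 (−0.14 to 0.15) and −0.07 (−0.22 to 0.07). PRDX1 (ENSG00000117450, chromosome 1, 45510914 to 45542732, minus strand) was at −0.06 (−0.20 to 0.07) and −0.05 (−0.17 to 0.08). In these 3 genes and both lines, no interval reached beyond −0.22 or 0.16 on the log2 scale. TXN has 7 annotated pseudogenes and PRDX1 has 1, so the assignment of their reads is less certain, and 501 exon bases of PRDX1 overlap MMACHC on the other strand, which reached 36.4 CPM.

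SRXN1 (ENSG00000271303, chromosome 20, 646615 to 653200, minus strand), the member with the miR-1 8mer, was at 2.75, 4.08 and 3.67 CPM in MV4-11 OE and 3.36, 4.15 and 2.77 CPM in EV. In Molm-14 it was at 3.67, 3.97 and 3.46 CPM in OE and 3.09, 3.47 and 3.57 CPM in EV. Both comparisons overlapped, at log2 fold changes of 0.03 (95% interval −0.40 to 0.46) and 0.13 (−0.30 to 0.56). The exons of SRXN1 share 2292 of 2528 bases with another gene on the same strand (ENSG00000270299), which was at 0 counts in all 30 libraries, and how the counting treated shared bases is not given in the sources used here. HMOX1 (ENSG00000100292, chromosome 22, 35380361 to 35394214, plus strand) had 2 to 10 counts per library in this series, too few to test.

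Leaving out the 2 MV4-11 libraries with high interferon-stimulated genes did not make any member pass in MV4-11. The lowest FDR was then 0.556, for TXN, at a log2 fold change of 0.11. NQO1 moved from 0.08 to 0.09 and GCLC from 0.14 to 0.18.

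Deletion of MPC1 was compared with EV in 3 lines. No member passed an FDR of 5% in any of them, on a background of 784 of 14490 genes (5.41%) in MV4-11, 348 (2.4%) in Molm-14 and 13 (0.0897%) in THP-1. At an unadjusted p under 0.05, 1 of 9 members passed in MV4-11, 2 in Molm-14 and 4 in THP-1, beside 22.3%, 10.7% and 8.01% of all genes. DESeq2 called 0 members in MV4-11, 0 in Molm-14 and 1 in THP-1. The median log2 fold change of the members was 0.10, 0.03 and 0.04, against 0.02, 0.00 and 0.00 for all genes.

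**Figure D2:**
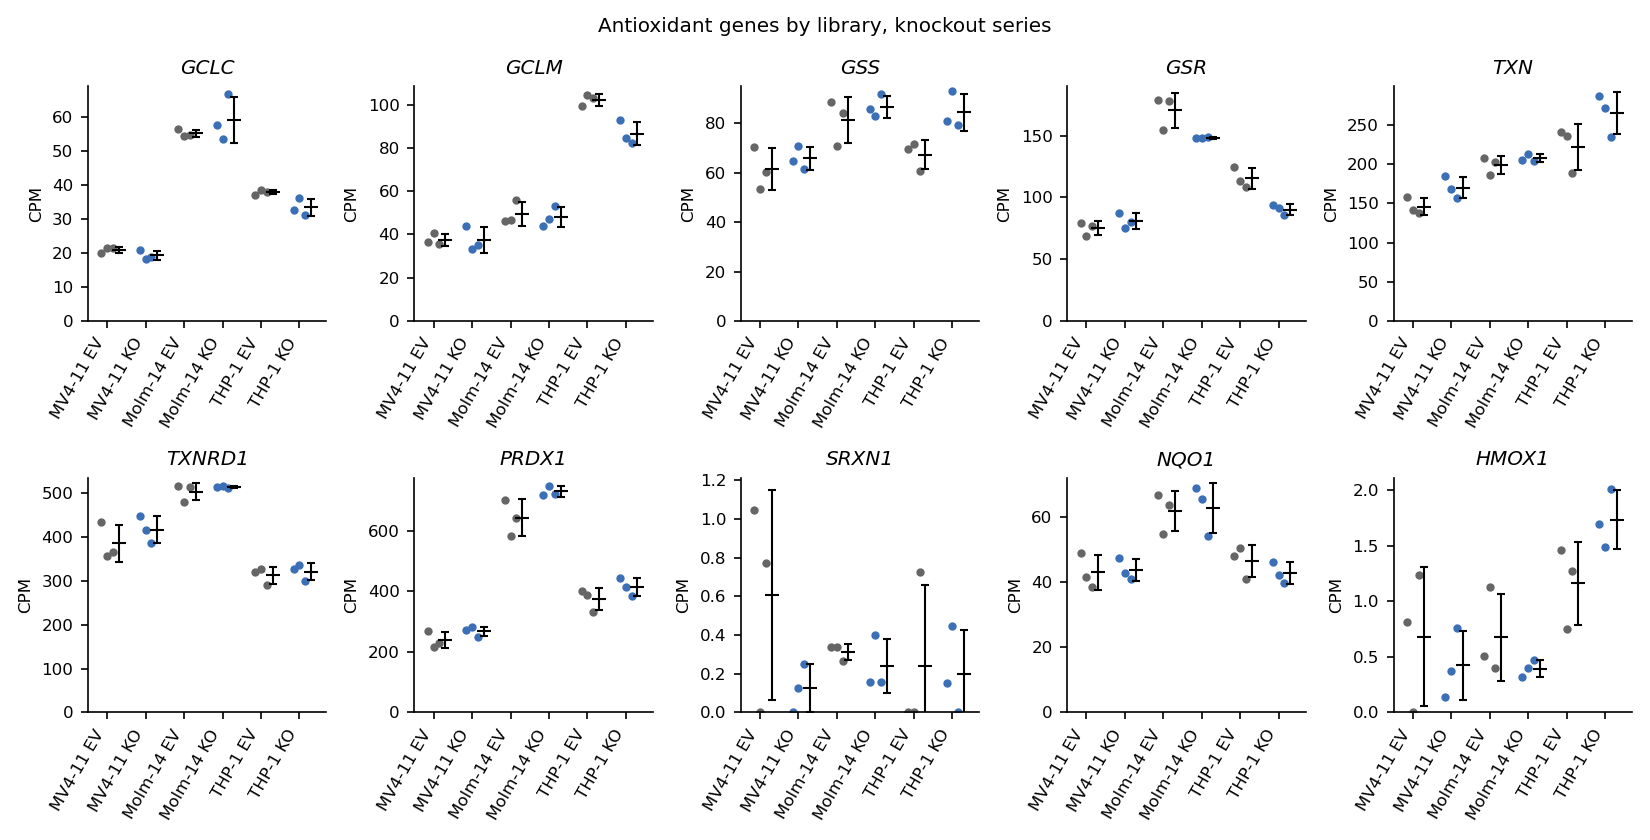
Level of each member (CPM, y axis from 0, where error bars are cut) in each library of the knockout series (gray EV, blue KO), with the mean and SD of 3 libraries beside the points. For GCLC, GCLM, GSR, TXNRD1 and PRDX1, the EV groups of the lines differ more than KO and EV do, which does not hold for every member. GSR in THP-1 is lower in each KO library than in each EV library.

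GSR showed the clearest separation. In THP-1 it was at 93.5, 91.3 and 85.3 CPM in KO and at 125, 114 and 108 CPM in EV, with no overlap (log2 fold change −0.36 ± 0.09, 95% interval −0.54 to −0.18, FDR = 0.181). DESeq2 gave FDR = 0.0467 for the same gene. In Molm-14, the 3 KO libraries (148, 148 and 149 CPM) also lay under the EV libraries (179, 154 and 178 CPM), at −0.20 (95% interval −0.37 to −0.03, FDR = 0.334). In MV4-11 the libraries overlapped, at 87.2, 74.9 and 80.3 CPM in KO and 79.4, 68.7 and 76.9 CPM in EV (log2 fold change 0.11, −0.07 to 0.29).

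The KO effect on GSR was compared between lines directly. It differed by 0.46 between MV4-11 and THP-1 (95% interval 0.21 to 0.72, FDR = 0.134), by 0.31 between MV4-11 and Molm-14 (0.06 to 0.55, FDR = 0.22) and by 0.16 between Molm-14 and THP-1 (−0.09 to 0.40, FDR = 0.874). None of these passed, nor did the difference of any other member, on backgrounds of 28 genes (0.193%), 215 genes (1.48%) and 111 genes (0.766%).

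The synthesis genes gave mixed signs. GSS was at 81.0, 93.1 and 79.3 CPM in THP-1 KO and at 69.7, 71.6 and 60.7 CPM in THP-1 EV, without overlap (log2 fold change 0.32 ± 0.11, FDR = 0.389). GCLM in the same cells was at 92.9, 84.8 and 82.4 CPM in KO and 99.2, 105 and 103 CPM in EV, also without overlap but in the other direction (−0.24 ± 0.10, FDR = 0.565). GCLC followed GCLM in THP-1 (32.7, 36.1 and 31.2 CPM against 37.1, 38.4 and 37.9 CPM, log2 fold change −0.18, FDR = 0.676). Both subunits thus lay lower, and GSS higher, in each THP-1 KO library than in each EV library. In MV4-11 and Molm-14, all 3 genes overlapped between KO and EV, with log2 fold changes from −0.11 to 0.10.

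TXN was at 288, 273 and 235 CPM in THP-1 KO and 241, 236 and 189 CPM in EV (log2 fold change 0.25, FDR = 0.499). In MV4-11 it was at 185, 168 and 158 CPM in KO and 158, 141 and 138 CPM in EV (0.22, FDR = 0.158). The groups overlapped in both lines. PRDX1 in Molm-14 was at 719, 749 and 722 CPM in KO and at 703, 582 and 644 CPM in EV, without overlap (0.18, 95% interval 0.00 to 0.37, FDR = 0.454). The log2 fold change of PRDX1 was 0.17 in MV4-11 and 0.15 in THP-1, where the groups overlapped.

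TXNRD1 and NQO1 did not separate in any line. TXNRD1 had log2 fold changes of 0.11, 0.03 and 0.04 in MV4-11, Molm-14 and THP-1, and NQO1 of 0.02, 0.03 and −0.12. HMOX1 rested on 0 to 12 counts per library. It was at 1.70, 1.49 and 2.01 CPM in THP-1 KO and at 1.46, 0.75 and 1.27 CPM in THP-1 EV, without overlap, with an interval from −0.45 to 1.56 on the log2 scale. SRXN1 had 0 to 9 counts per library and was not tested. Over the 9 members tested, groups did not overlap for 0 in MV4-11, 2 in Molm-14 (GSR, PRDX1) and 4 in THP-1 (GCLC, GCLM, GSS, GSR), not counting HMOX1, which passed the low-count filter through THP-1, where it was highest. The shares of all tested genes without overlap were 24.1%, 16.4% and 13.6%.

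**Figure D3:**
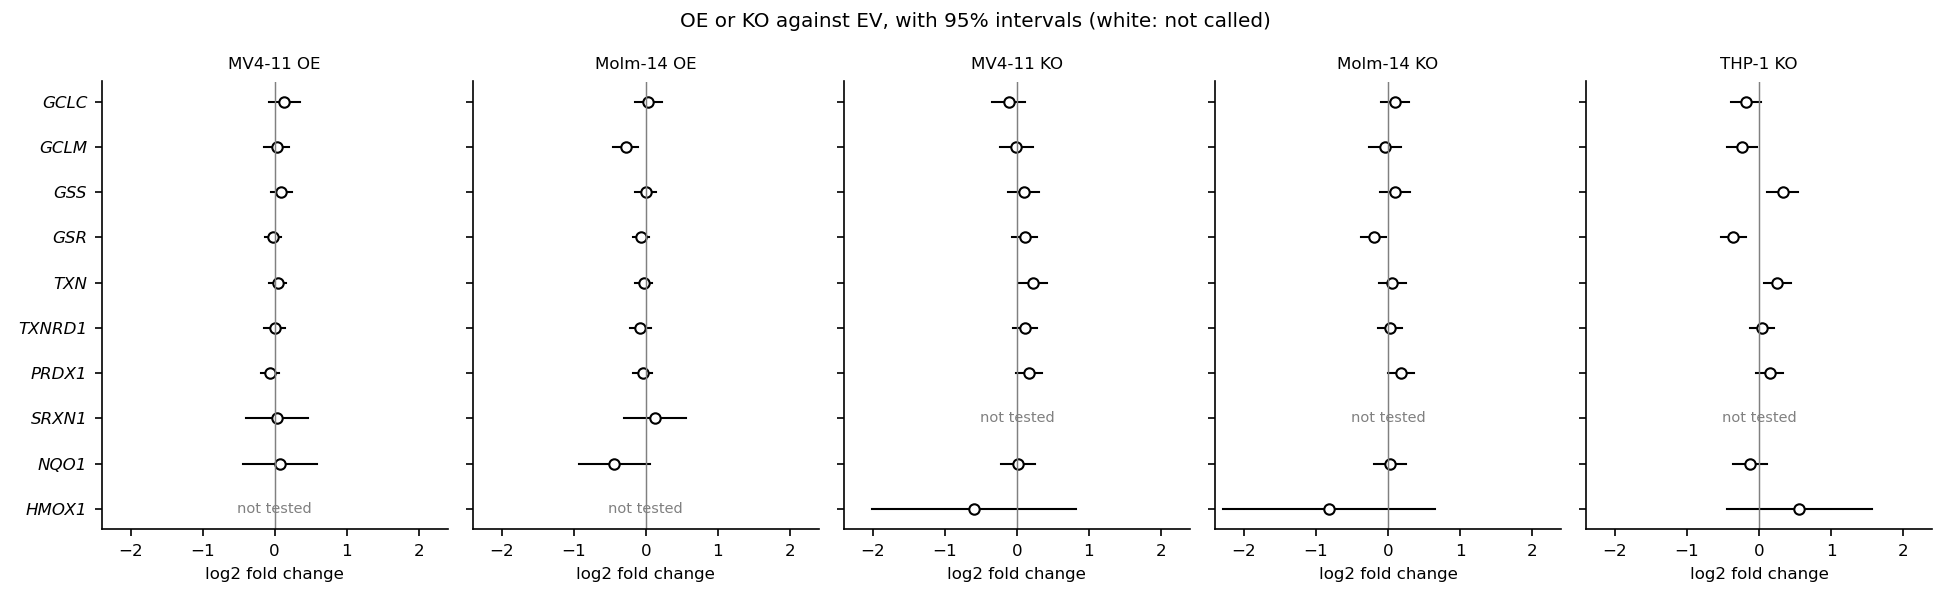
Log2 fold change of each member for OE or KO against EV in the same line (x axis), with the 95% interval of the edgeR fit. White points were not called, which holds for every member in all 5 comparisons, and the intervals of HMOX1 are the widest.

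The EV libraries were compared between lines, where all 8 members tested in both series were lower in MV4-11 than in Molm-14, in each series. The EV libraries of the 2 series are separate and carry different vectors. In the overexpression series, 8 of 9 members were called, all lower in MV4-11, on a background of 11371 genes called (64.8%), of which 31.9% of all tested genes were lower in MV4-11 and 32.9% higher. In the knockout series, 8 of 9 were called, all lower, on a background of 8940 genes (61.7%), with 31.6% lower and 30.1% higher. The share called is thus high for all genes, while the lower direction holds for 8 of 9 members and for about as many genes as the higher one among all genes. The members' median log2 fold change was −0.66 and −0.45, against 0.01 and 0.00 for all genes.

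**Figure D4:**
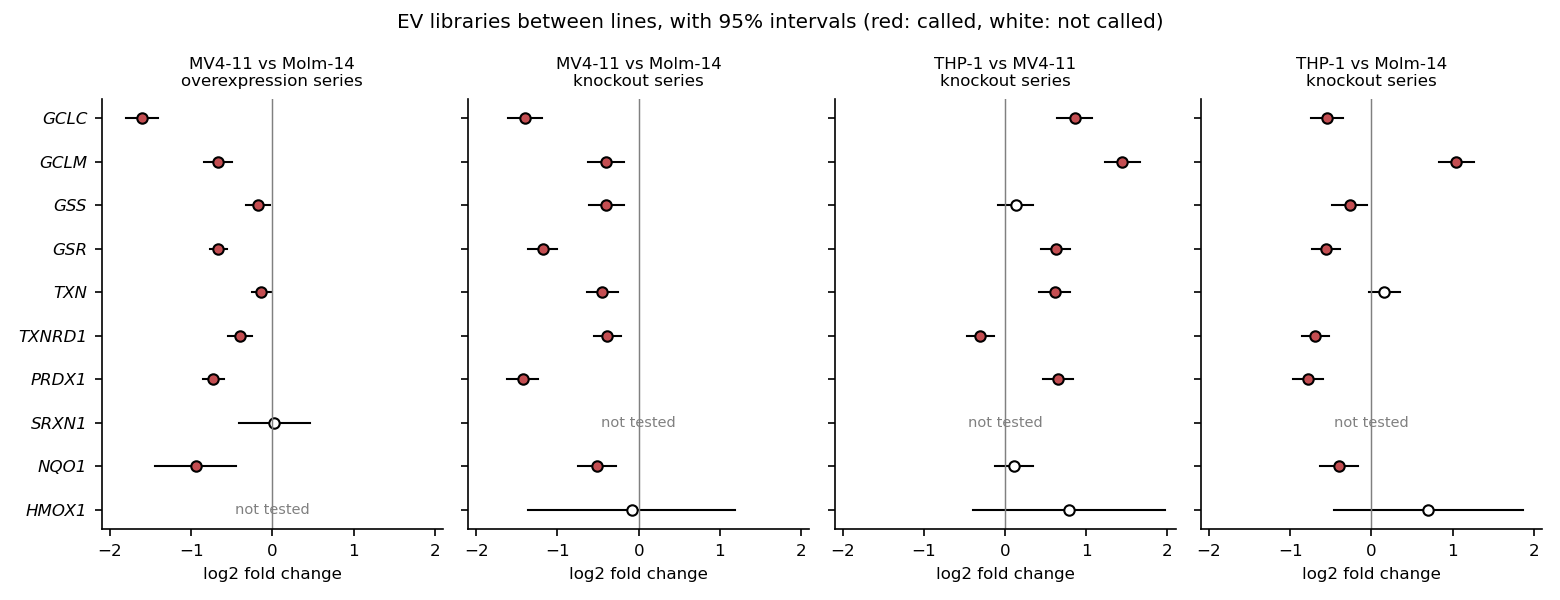
Log2 fold change of each member between EV libraries of different lines (x axis), with the 95% interval of the edgeR fit, in red where called. The points of MV4-11 against Molm-14 lie left of 0 in both series except SRXN1, and HMOX1 is close to 0.

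GCLC differed most in the overexpression series. It was at 14.9, 15.7 and 13.3 CPM in MV4-11 EV and 43.9, 46.9 and 43.3 CPM in Molm-14 EV (log2 fold change −1.61 ± 0.10, FDR = 1.01e-11). In the knockout series it was at 19.9, 21.4 and 21.3 CPM and 56.3, 54.4 and 54.7 CPM (−1.40 ± 0.10, FDR = 2.1e-12). GCLC was thus 3.04 times as abundant in Molm-14 in one series and 2.65 times in the other. GCLM differed less, at −0.67 (FDR = 4.43e-07) and −0.40 (FDR = 0.00234).

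PRDX1 was at 172, 162 and 146 CPM in MV4-11 EV and 253, 271 and 269 CPM in Molm-14 EV of the overexpression series (log2 fold change −0.73 ± 0.06). In the knockout series the difference was −1.43 ± 0.09, with 268, 217 and 230 CPM against 703, 582 and 644 CPM. GSR was at −0.66 ± 0.05 and −1.18 ± 0.09. For both genes the 95% intervals of the 2 series did not overlap (PRDX1 −0.86 to −0.60 and −1.62 to −1.24, GSR −0.77 to −0.55 and −1.36 to −1.01), and the tables were counted separately. TXNRD1 differed by −0.40 and −0.39, and NQO1 by −0.94 and −0.51. NQO1 in the overexpression series was −0.76 without the 2 libraries set apart, and still called.

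GSS and TXN differed least among the members called in the overexpression series. In the overexpression series GSS was at −0.17 (FDR = 0.0377), next to −0.40 in the knockout series, and TXN was at −0.14 (FDR = 0.0382) and −0.45. Their calls in the overexpression series rested on single libraries. That of GSS was lost without MV4-11 EV replicate 2 (−0.11, FDR = 0.209) or without Molm-14 EV replicate 1, 2 or 3 (FDR = 0.0709, 0.0508 and 0.133). That of TXN was lost without MV4-11 EV replicate 1, 2 or 3 (FDR = 0.103, 0.0607 and 0.0526) or without Molm-14 EV replicate 2 (−0.09, FDR = 0.195). In the knockout series, neither call was lost under any alternative.

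THP-1 EV cells did not stand on one side of both FLT3-ITD lines. Against MV4-11, 5 of 9 members were called higher in THP-1 and 1 was called lower, on a background of 9787 genes (67.5%, with 34.6% higher and 32.9% lower). GCLM was highest above MV4-11 (1.45 ± 0.11), at 99.2, 105 and 103 CPM against 36.5, 40.7 and 35.5 CPM. GCLC (0.86), PRDX1 (0.65), GSR (0.62) and TXN (0.61) were also higher, and TXNRD1 was lower (−0.30). GSS, NQO1 and HMOX1 were not called.

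Against Molm-14, 1 of 9 members was called higher in THP-1 and 6 were called lower, on a background of 10085 genes (69.6%, with 35.5% higher and 34.1% lower). GCLM was the one that was higher (1.05 ± 0.10), and PRDX1 (−0.78), TXNRD1 (−0.69), GSR (−0.56), GCLC (−0.54), NQO1 (−0.40) and GSS (−0.27) were lower. GSS in Molm-14 EV and THP-1 EV overlapped, and its call (FDR = 0.0268) was lost without Molm-14 EV replicate 1 (FDR = 0.121), Molm-14 EV replicate 3 (FDR = 0.0947) or THP-1 EV replicate 3 (FDR = 0.119), and also with other size factors (FDR = 0.083). TXN was not called (0.16, FDR = 0.13), but passed without THP-1 EV replicate 3 (0.26, FDR = 0.0134).

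The order of the lines therefore differed between genes. GCLC, GSR, TXNRD1, PRDX1 and NQO1 were highest in Molm-14, whereas GCLM was highest in THP-1. TXNRD1 was lowest in THP-1. For NQO1, the means of THP-1 EV (46.6 CPM) and MV4-11 EV (43.1 CPM) did not differ beyond their spread, and for GSS those of THP-1 EV (67.3 CPM) and MV4-11 EV (61.5 CPM) did not either.

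The balance of the ligase subunits differed between lines. Per kilobase of exon, the ratio of GCLM to GCLC was 1.43 ± 0.17 in Molm-14 EV, 2.86 ± 0.19 in MV4-11 EV and 4.30 ± 0.04 in THP-1 EV of the knockout series (n = 3 each, ranges not overlapping). In the overexpression series the ratio was 1.59 ± 0.12 in Molm-14 EV and 3.03 ± 0.09 in MV4-11 EV. In Molm-14 OE the ratio was 1.20 to 1.40, under the 1.51 to 1.72 of Molm-14 EV. KO and EV overlapped for this ratio in all 3 lines. The ratio of GSR to GSS was 1.68 to 1.98 in THP-1 KO and 2.71 to 3.06 in THP-1 EV, and 2.78 to 3.05 in Molm-14 KO and 3.44 to 3.72 in Molm-14 EV, without overlap. In MV4-11 it overlapped (1.81 to 2.30 in KO, 1.92 to 2.20 in EV). On the thioredoxin side, the ratio of TXNRD1 to TXN was 0.172 to 0.192 in THP-1 KO and 0.2 to 0.231 in THP-1 EV, and 0.366 to 0.372 in MV4-11 KO and 0.381 to 0.412 in MV4-11 EV. It was thus lower in each KO library of these lines, whereas KO and EV overlapped in Molm-14 (0.363 to 0.377 and 0.374 to 0.388), as did OE and EV in both lines. These ratios were formed after the levels were known and were not tested. In THP-1, GSR and GSS each separated KO from EV in opposite directions, so the separation of their ratio was fixed by their levels. How often the ratio of other gene pairs separates was not determined. The size of each ratio also depends on the exon lengths used.

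**Figure D5:**
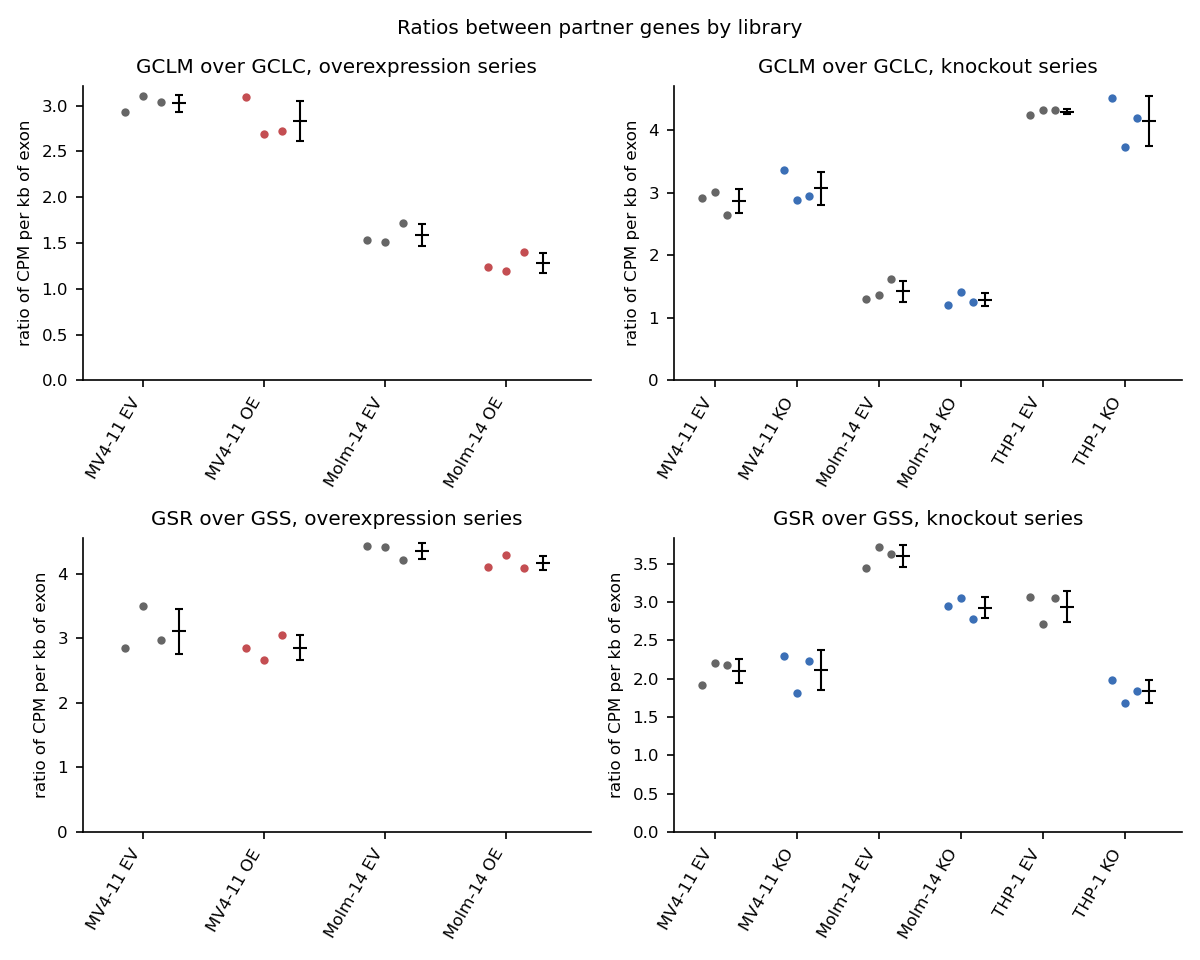
Ratio of CPM per kb of exon between GCLM and GCLC (top) and GSR and GSS (bottom) in each library, for the overexpression series (left) and the knockout series (right), with the mean and SD of 3 libraries. GCLM over GCLC rises from Molm-14 to MV4-11 to THP-1, and GSR over GSS is lower in KO than in EV in THP-1 and Molm-14.

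Around the members, 7 lists of 98 genes covered the rest of the pathway. With miR-1 overexpression, 0 of the 91 list genes tested were called in either line (7 in MV4-11 and 4 in Molm-14 at an unadjusted p under 0.05, near the shares of all genes given above), and DESeq2 called 0 in both. With MPC1 deletion, 14 of 93 were called in MV4-11 (15.1%, 4 higher and 10 lower), 7 in Molm-14 (7.53%, 3 higher and 4 lower) and 1 in THP-1 (1.08%, lower), beside 5.41%, 2.4% and 0.0897% of all genes.

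TXNIP, which binds and inhibits thioredoxin, fell in 2 lines. It was at 318, 312 and 304 CPM in MV4-11 KO against 497, 469 and 438 CPM in EV (log2 fold change −0.59 ± 0.08, FDR = 7.27e-05), and at 489, 509 and 434 CPM in THP-1 KO against 789, 776 and 669 CPM in EV (−0.64 ± 0.08, FDR = 6.67e-05). In Molm-14 it was at 197, 196 and 197 CPM in KO and 216, 191 and 213 CPM in EV (−0.07 ± 0.08, FDR = 0.853). The KO effect on TXNIP differed between Molm-14 and THP-1 (0.57, FDR = 0.00862) and between MV4-11 and Molm-14 (−0.52, FDR = 0.0167). The last of these was lost without Molm-14 KO replicate 2 or Molm-14 EV replicate 2 (FDR up to 0.0508). TXN itself, the partner of TXNIP, was not called in any of the 3 lines.

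In MV4-11 KO, the other called genes of the thioredoxin list were TXN2, mitochondrial thioredoxin (−0.49), MSRB1, a methionine sulfoxide reductase (−0.59), and PRDX3, the mitochondrial peroxiredoxin (0.31). Among glutathione-using enzymes, GLO1, which detoxifies methylglyoxal with glutathione, rose (0.39) and MGST1 fell (−0.51). Of the other NRF2 targets 3 were called, all lower. PGD, which makes NADPH in the pentose phosphate pathway, fell from 243, 336 and 349 CPM in EV to 208, 195 and 201 CPM in KO (−0.62 ± 0.10, FDR = 0.000416), and EPHX1 fell (−0.83). ME1 had 4, 6 and 2 counts in EV and 0 in each KO library, near the floor of 3 counts, so no fold is given. The NRF2-related factor NFE2L1 fell (−0.37) and the ubiquitin ligase subunit RBX1 rose (0.45). CYBB, the catalytic subunit of the phagocyte NADPH oxidase, fell (−0.46), and ME3, a mitochondrial malic enzyme, rose (0.58). None of the 10 genes of cystine uptake and glutathione turnover was called.

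In these cells, TXNIP and PGD were called under each alternative. ME1 was called wherever it was tested, but it passed the low-count filter through Molm-14 and THP-1, and its counts in MV4-11 were near the floor. Leaving out single libraries ended other calls: 11 of the 14 without EV replicate 3 (FDR 0.0569 to 0.263), 9 without KO replicate 2 (0.0504 to 0.119), 8 without KO replicate 1 (0.0727 to 0.217) and 7 without EV replicate 2 (0.0745 to 0.16). EPHX1 was also lost without KO replicate 3. With only the MV4-11 libraries fitted, 5 of the 14 were lost (EPHX1, MSRB1, MGST1, TXN2 and PRDX3, FDR 0.0513 to 0.0931).

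In Molm-14 KO, SLC7A11, the cystine importer that feeds glutathione synthesis, fell from 120, 144 and 125 CPM in EV to 101, 97.7 and 98.0 CPM (−0.39 ± 0.08, FDR = 0.00734). GPX1, a glutathione peroxidase, rose (0.41), and GLO1 fell (−0.42), opposite to MV4-11. GSTM3 was also called higher, but on 0, 1 and 6 counts in EV and 7, 18 and 7 counts in KO. It passed the low-count filter through THP-1, where it had 353 to 615 counts per library, so no fold is given. The stress-induced gene SESN3 (−0.72) and the hematopoietic factor NFE2 (−0.47) fell, and AKR1B1, aldose reductase, rose (0.56). No gene of the superoxide and hydrogen peroxide list or of the mitochondrial NADPH list was called.

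Each of these 7 Molm-14 calls was lost without at least 1 library. Without KO replicate 2, 6 of the 7 were lost, all but AKR1B1 (FDR 0.0533 to 0.359), and without KO replicate 3 AKR1B1, NFE2, GLO1 and GPX1 were (0.0555 to 0.128). SLC7A11 was also lost without EV replicate 2, together with GSTM3 and GPX1 (FDR 0.101 to 0.252). GSTM3, NFE2 and GLO1 were lost without EV replicate 1, NFE2 and GLO1 without EV replicate 3, and NFE2, GLO1 and GPX1 without KO replicate 1.

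Between the EV libraries of MV4-11 and Molm-14, the lists differed in direction. Of the other NRF2 targets, 12 were higher and 3 lower in MV4-11 in the overexpression series (19 tested), and 10 higher and 4 lower in the knockout series (18 tested). All 8 tested genes of superoxide and hydrogen peroxide were higher in MV4-11 in the first and 5 of 8 in the second, with none lower. Of cystine uptake and glutathione turnover, 2 were higher and 3 lower in the first (10 tested), and 1 higher and 8 lower in the second. Glutathione-using enzymes gave 7 higher and 9 lower (20 tested), then 8 and 7 (22 tested). Other thioredoxin and peroxiredoxin genes gave 8 higher and 4 lower (16 tested), then 7 and 5 (17 tested), NRF2 regulators 6 and 2, then 5 and 1 (11 tested), and mitochondrial NADPH sources 3 and 3 in both (7 tested). Over all 7 lists, 76.9% and 72% of tested genes were called, beside 64.8% and 61.7% of all genes.

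THP-1 EV cells were also set against the other lines by list. Against MV4-11, cystine uptake and glutathione turnover gave 5 higher and 0 lower, whereas other NRF2 targets gave 4 higher and 9 lower and superoxide and hydrogen peroxide genes 1 and 4. Against Molm-14, the same lists gave 2 higher and 5 lower, 9 and 3, and 5 and 1. The remaining lists had called genes in both directions. Against MV4-11, glutathione-using enzymes gave 8 higher and 8 lower, other thioredoxin and peroxiredoxin genes 6 and 5, NRF2 regulators 3 and 5 and mitochondrial NADPH sources 2 and 4. Against Molm-14 these counts were 10 and 7, 7 and 5, 4 and 3, and 1 and 4. Over all 7 lists, 68.8% and 71% of tested genes were called, beside 67.5% and 69.6% of all genes.

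Over the 18 libraries of the knockout series, the gene most like a member in log2 CPM was sought among 9425 genes with a mean of at least 10 CPM. Pearson's r was 0.99 for TXNRD1 with H2BC4 and for PRDX1 with CCT3, and 0.98 for GCLM with BMP8B. It was 0.965 for TXN with ABRACL, 0.964 for GSR with TFB2M, 0.932 for NQO1 with RNF6 and 0.928 for GSS with CHCHD2. The 18 points share 3 lines and are not independent, so no p is given.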

How the data were processed

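RNA was extracted with a miRNeasy kit and DNase, and stranded total RNA libraries were made after ribosomal RNA depletion. The authors removed optical duplicates, aligned the trimmed reads (cutadapt 1.16) to GRCh38 (STAR 2.7.6a) and deposited whole-number counts per gene from featureCounts 1.6.3, 1 table for each series. DESeq2 1.30.1 is also named in the submitters' processing notes. Whether the counting used strand is not given in the sources used here. Each table was normalized and tested on its own, and levels were not compared across tables.

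Counts were tested with edgeR 4.0.16 (R 4.3.3, TMM size factors, low-count filter, quasi-likelihood test, 1 fit over all groups of a table) and Benjamini-Hochberg adjustment over all genes tested, at an FDR of 5%. CPM use the TMM-scaled totals, and CPM per kb the summed exon length of GENCODE 44, to which 60419 and 56948 gene IDs of the overexpression and knockout tables were matched. The SE was derived as the absolute log2 fold change divided by the square root of the F statistic of the test. Intervals are 95%, follow from this SE with a t quantile, and cover the spread between libraries. The test was checked on simulated data. Alternatives were RLE size factors, no filter beyond 1 count, DESeq2 1.42.0, the replicate number as a block, only the libraries compared, and each library left out. Leaving out both MV4-11 libraries with high interferon-stimulated genes was added after the data were seen.

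The members and the 7 lists (cystine uptake and glutathione turnover, glutathione-using enzymes, other thioredoxin and peroxiredoxin genes, NRF2 regulators and partners, other NRF2 targets, superoxide and hydrogen peroxide enzymes, mitochondrial NADPH sources) were chosen with earlier results of these data known. Named genes were all 10 members, MPC1, at most the 4 called genes per list with the largest change in each OE or KO comparison, and the gene most like each member, apart from a few results that are not reported here. The ratios and the interferon-stimulated genes were chosen after values were seen. Promoters of GSS, GSR, PRDX1 and HMOX1 were not analysed here. Replicate pairs all differed by more than counting noise.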

Additional observations from a re-analysis of the deposited data

Results flagged for a closer look

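In 9 cases given here, the effect of MPC1 deletion on a list gene differed between lines by the test of the difference itself (edgeR, FDR under 5%). In each comparison 93 list genes were tested. Over all tested genes, the difference was called for 1.48% between MV4-11 and Molm-14 and 0.766% between Molm-14 and THP-1. None of the 10 members was among the 9 cases. Values are differences of log2 fold changes, the first line minus the second.

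Between MV4-11 and Molm-14, the KO effect on GLO1 differed by 0.81 (FDR = 0.00222), with a rise in MV4-11 and a fall in Molm-14. That on PGD differed by −0.72 (FDR = 0.00547). The differences of TXNIP (−0.52, FDR = 0.0167), SESN3 (0.76, FDR = 0.0173), AKR1B1 (−0.65, FDR = 0.0403) and TXN2 (−0.70, FDR = 0.0434) also passed. For ME1, the fitted difference of −4.82 (FDR = 0.0167) depends on the prior count, because the MV4-11 KO libraries held 0 counts. ME1 passed the low-count filter through Molm-14 and THP-1, so this difference carries little weight.

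Between Molm-14 and THP-1, GLO1 differed by −0.78 (FDR = 0.003) and TXNIP by 0.57 (FDR = 0.00862). The differences of GLO1 (both), PGD between MV4-11 and Molm-14, and TXNIP between Molm-14 and THP-1 passed under each of the 17 alternatives run for their comparison.

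The other calls were lost in part when single libraries were left out. Those of TXN2 and SESN3 were also lost with only the libraries compared (FDR 0.0567 to 0.072). The TXN2 call was lost without any one of MV4-11 EV replicates 2 and 3, MV4-11 KO replicates 1 and 2, Molm-14 EV replicates 1 and 3 and Molm-14 KO replicates 2 and 3. AKR1B1 was lost without any one of MV4-11 EV replicate 3, MV4-11 KO replicates 1 and 3, the 3 Molm-14 EV replicates and Molm-14 KO replicates 2 and 3. ME1 was lost without MV4-11 EV replicate 2 or any 1 of the 3 MV4-11 KO replicates, and TXNIP and SESN3 without Molm-14 EV replicate 2 or Molm-14 KO replicate 2. In all of these the FDR was at most 0.145.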

How the results depend on the processing

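No called value of a member changed sign under any alternative. The same held for list genes called in OE or KO against EV or in a difference of these effects between lines. List genes called between EV groups were not followed across the alternatives. In comparisons of OE or KO with EV, the number of members called moved in 3. With only the libraries compared, 2 members were called in Molm-14 OE (GCLM, −0.28, FDR = 0.00615, and NQO1, −0.44, FDR = 1.18e-05), and DESeq2 called 1 in THP-1 KO (GSR, −0.36, FDR = 0.0467). With the replicate block, 1 member was called in MV4-11 KO (TXN, 0.22, FDR = 0.0303). Deviations of same-numbered libraries from their group means correlated at −0.377 to 0.33 over the 5 OE or KO comparisons. In THP-1 these correlations were 0.179, 0.099 and 0.33, beside −0.262 to 0.145 for different numbers. With 3 libraries per group, these values cannot settle whether the numbers pair the samples. The block moved the genes called in MV4-11 KO from 784 to 1474 and in MV4-11 OE from 31 to 15. It ended the call of GSS between MV4-11 and Molm-14 in the overexpression series (FDR = 0.054) and of GPX1 in Molm-14 KO (FDR = 0.0611). Apart from GSS and the gain of TXN in MV4-11 KO, it changed no member's call.

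Counts over all genes were less stable. MV4-11 OE gave 68 with DESeq2, 123 with no filter, 9 with only its own libraries and 76 without both libraries with high interferon-stimulated genes. Leaving out single libraries gave 12 to 47 genes in MV4-11 OE, 133 to 1400 in MV4-11 KO, 183 to 293 in Molm-14 KO (348) and 3 to 10 in THP-1 KO (13). Molm-14 OE gave 1 gene, but 5 with DESeq2, 7 with no filter and 195 alone, MV4-11 KO 356 alone, and THP-1 KO 4 to 30. The differences gave 2 to 33 (OE), 105 to 388, 18 to 80 and 78 to 159 genes. Between EV groups, 6 to 8 members were called for MV4-11 against Molm-14 in the overexpression series (8; 6 with DESeq2, without GSS and TXN) and 6 to 7 for THP-1 against Molm-14 (7), where GSS was lost and TXN gained under some alternatives. HMOX1 and SRXN1 rested on 0 to 12 counts per library in the knockout series.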
